A study of Mus musculus with 36 samples.

Results

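The 33 genes described here encode proteins of mitosis: the kinases and cyclins that start it, the partners of the anaphase-promoting complex, the spindle checkpoint, the kinetochore, the spindle motors, the cytokinesis machinery and 3 proteins of chromosome structure and cohesion. The members are a list of symbols, and the rule uses no measured value, but the list was drawn up with earlier results of these data known. Of the 33 genes, 32 had a probe set that the platform annotation pairs with that symbol alone. No probe set was named for Ccnb1 (cyclin B1, the main mitotic partner of Cdk1) in the annotation used here, so it has no value below. Where a gene had several such probe sets, the one with the highest mean over all arrays was used. All 32 passed the filter on low values and were tested among 14495 genes.

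The study sorted 6 stromal populations from the thymus of wild-type male C57BL/6J mice by flow cytometry and hybridised amplified RNA to Affymetrix whole-genome mouse arrays. The populations were fibroblasts, Sirpa+ dendritic cells (Sirpa+ DC), Sirpa- dendritic cells (Sirpa- DC), mTEChi and mTEClo (medullary thymic epithelial cells, by the high and low names of the labels) and cortical thymic epithelial cells (cTEC). Mice were 1, 3 or 6 months old, and each of the 18 combinations of population and age had 2 arrays, 36 in all. By the labels each sample came from 1 mouse, whereas the design description gives 2 mice for every age. Populations of 1 age may thus share animals, and p-values measure the spread between these samples, which may be technical. No group carried a transgene or received a treatment. In such bulk RNA, fewer dividing cells and less mitotic RNA per cell cannot be told apart.

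Mitosis begins when Cdk1, bound to its cyclins and helped by the Polo kinase Plk1 and the Aurora kinases, triggers chromosome condensation and spindle assembly. The kinetochore ties chromosomes to microtubules, the checkpoint kinases hold back the anaphase-promoting complex until all are attached, and its activator Cdc20 then lets the chromosomes part. Most of these genes are transcribed late in the cell cycle, in G2 and M phase, and many carry in their promoters a cell cycle homology region (CHR) and CCAAT boxes, read by the DREAM, B-MYB-FOXM1 and NF-Y complexes. In the thymus, the epithelium is known to turn over quickly in young animals and to shrink with age.

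The promoters are shown because the module is usually described through these shared elements, and because its members differed in how far they fell with age. Of the 33 genes, 28 had an entry among the RefSeq promoter sequences (GRCm38.p6), each running from 250 bases before to 50 after the annotated start. The search was for TTTGAA or TTCGAA (CHR) and for CCAAT, on both strands, each motif counted separately and overlaps allowed. A CHR match stood in 23 of the 28 members (82.1%), against 21.7% of the 27025 genes with an entry. CCAAT stood in 24 of the 28 (85.7%), against 41.1% of all genes. At least 2 CCAAT matches stood in 17 members (60.7%, against 13.3%), and 21 members held both motifs (75.0%, against 8.61%). Counted over promoter entries, members held 34 CHR matches, of which 25 lay within 100 bases of the start, in 22 members. Prc1 and Ect2 have overlapping entries, so their matches were counted more than once. A match is a description of the letters and not of a bound site.

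Below are the promoters of the 3 members with the largest fall in cTEC between 1 and 3 months and of the 2 with the smallest among members with 1 promoter entry. Capitals mark the matches to either motif, on either strand. The windows are chr5:30666636-30666935 on the plus strand for Cenpa, chr2:119618048-119618347 on the plus strand for Nusap1, chr1:189688037-189688336 on the minus strand for Cenpf, chr15:99651607-99651906 on the minus strand for Racgap1 and chr17:71526808-71527107 on the minus strand for Ndc80.
Cenpa: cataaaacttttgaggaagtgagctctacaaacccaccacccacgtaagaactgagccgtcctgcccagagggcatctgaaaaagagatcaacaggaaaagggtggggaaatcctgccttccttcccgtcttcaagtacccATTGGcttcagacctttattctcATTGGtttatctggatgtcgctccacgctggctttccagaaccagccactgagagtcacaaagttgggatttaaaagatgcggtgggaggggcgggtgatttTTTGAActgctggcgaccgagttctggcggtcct
Nusap1: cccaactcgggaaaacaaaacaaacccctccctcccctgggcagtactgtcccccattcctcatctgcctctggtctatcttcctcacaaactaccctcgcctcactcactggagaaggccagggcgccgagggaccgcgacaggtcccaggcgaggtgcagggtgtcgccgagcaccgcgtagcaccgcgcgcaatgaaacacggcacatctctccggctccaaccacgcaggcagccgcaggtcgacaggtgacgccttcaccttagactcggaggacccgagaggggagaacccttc
Cenpf: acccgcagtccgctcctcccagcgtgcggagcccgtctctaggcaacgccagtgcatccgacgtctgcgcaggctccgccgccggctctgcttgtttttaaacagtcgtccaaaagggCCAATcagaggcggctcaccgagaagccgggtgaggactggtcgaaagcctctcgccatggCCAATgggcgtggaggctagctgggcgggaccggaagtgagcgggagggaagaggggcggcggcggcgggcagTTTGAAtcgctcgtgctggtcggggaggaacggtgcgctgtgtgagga
Racgap1: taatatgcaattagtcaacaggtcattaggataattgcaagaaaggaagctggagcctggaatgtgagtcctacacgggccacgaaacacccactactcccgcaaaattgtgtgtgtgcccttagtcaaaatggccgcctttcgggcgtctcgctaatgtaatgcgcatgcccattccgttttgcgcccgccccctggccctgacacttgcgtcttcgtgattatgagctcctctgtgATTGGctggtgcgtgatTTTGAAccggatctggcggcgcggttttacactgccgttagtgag
Ndc80: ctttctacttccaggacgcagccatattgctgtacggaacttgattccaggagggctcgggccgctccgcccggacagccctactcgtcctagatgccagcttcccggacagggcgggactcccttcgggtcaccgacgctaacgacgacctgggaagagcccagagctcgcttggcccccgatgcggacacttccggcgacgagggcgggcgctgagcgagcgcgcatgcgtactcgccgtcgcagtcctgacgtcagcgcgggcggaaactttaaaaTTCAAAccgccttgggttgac
Cenpa and Cenpf, with large falls, each had 1 CHR match near the start and 2 CCAAT matches. Racgap1, with a small fall, had 1 of each, Ndc80 had a CHR match on the reverse strand alone, and neither motif was found in the window of Nusap1, which also fell far. Over the measured members, the median cTEC difference was -2.05 (log2) for the 23 with a CHR match and -1.77 for the 4 with an entry but no match.

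All values below are log2 signals of the deposited table, and differences are on the same log2 scale, so that 1 unit is a 2-fold change. The medians of the 36 arrays lay between 5.61 and 5.75, and 5.66 was the pooled median. The sorted populations carried their defining markers: Psmb11 averaged 10.96 in cTEC, Aire 11.19 in mTEChi, Itgax 11.16 in Sirpa+ DC and 10.74 in Sirpa- DC, and Pdgfra 10.62 in fibroblasts. The Sirpa gene itself had a mean of 10.21 on Sirpa+ arrays, against 7.03 on Sirpa- arrays, and the basal keratin gene Krt5 one of 12.71 on mTEClo arrays. Psmb11, Aire and Pdgfra had means of at most 6.80, 7.59 and 6.48 in other populations. Some further markers were shared. Krt5 was bright in cTEC (11.48) and mTEChi (10.85) too, and so was Krt14 (10.38 and 10.10, beside 11.88 for mTEClo). Among fibroblast markers, Dcn reached 11.76 in cTEC and Pdgfrb 9.95 in mTEChi. The epithelial markers Epcam and Cdh1 stood at 10.13 and 9.96 for Sirpa+ DC. Thymocyte transcripts were also measurable in these sorted populations. The mean of 13 thymocyte markers ranged over arrays from 8.82 to 11.14 in fibroblasts, from 6.88 to 7.99 in Sirpa+ DC, from 6.15 to 7.44 in Sirpa- DC, from 5.85 to 6.48 in mTEChi, from 5.67 to 7.21 in mTEClo and from 6.54 to 8.77 in cTEC. In fibroblasts the T cell gene Cd3d averaged 10.82 and the recombinase gene Rag1 11.96. Many thymocytes divide. The gap between 3' and 5' control probe sets, a sign of RNA quality, was widest on 1 fibroblast array at 1 month (3.15) and 1 mTEClo array at 3 months (3.07), among arrays that otherwise began at 1.41. The second 6-month fibroblast array had low fibroblast markers and the first 1-month one a high erythroid gene, and the fibroblast results are given without each.

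The mitosis genes were lowest in cTEC and mTEClo. Averaged over 32 genes and then over the 6 arrays of a population, they measured 8.45 ± 0.82 in fibroblasts, 8.37 ± 0.18 in Sirpa+ DC, 8.86 ± 0.05 in Sirpa- DC, 8.13 ± 0.23 in mTEChi, 6.97 ± 0.79 in mTEClo and 6.81 ± 0.90 in cTEC (SD, n = 6 arrays). For all 32 genes, cTEC and mTEClo were the lowest pair of populations, cTEC lowest for 24 and mTEClo for 8. The highest population was Sirpa- DC for 23 genes, fibroblasts for 6 and mTEChi for 3. The SD was widest in fibroblasts, mTEClo and cTEC, the populations whose means differed most between ages, as the map of group means shows gene by gene.

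**Figure D1:**
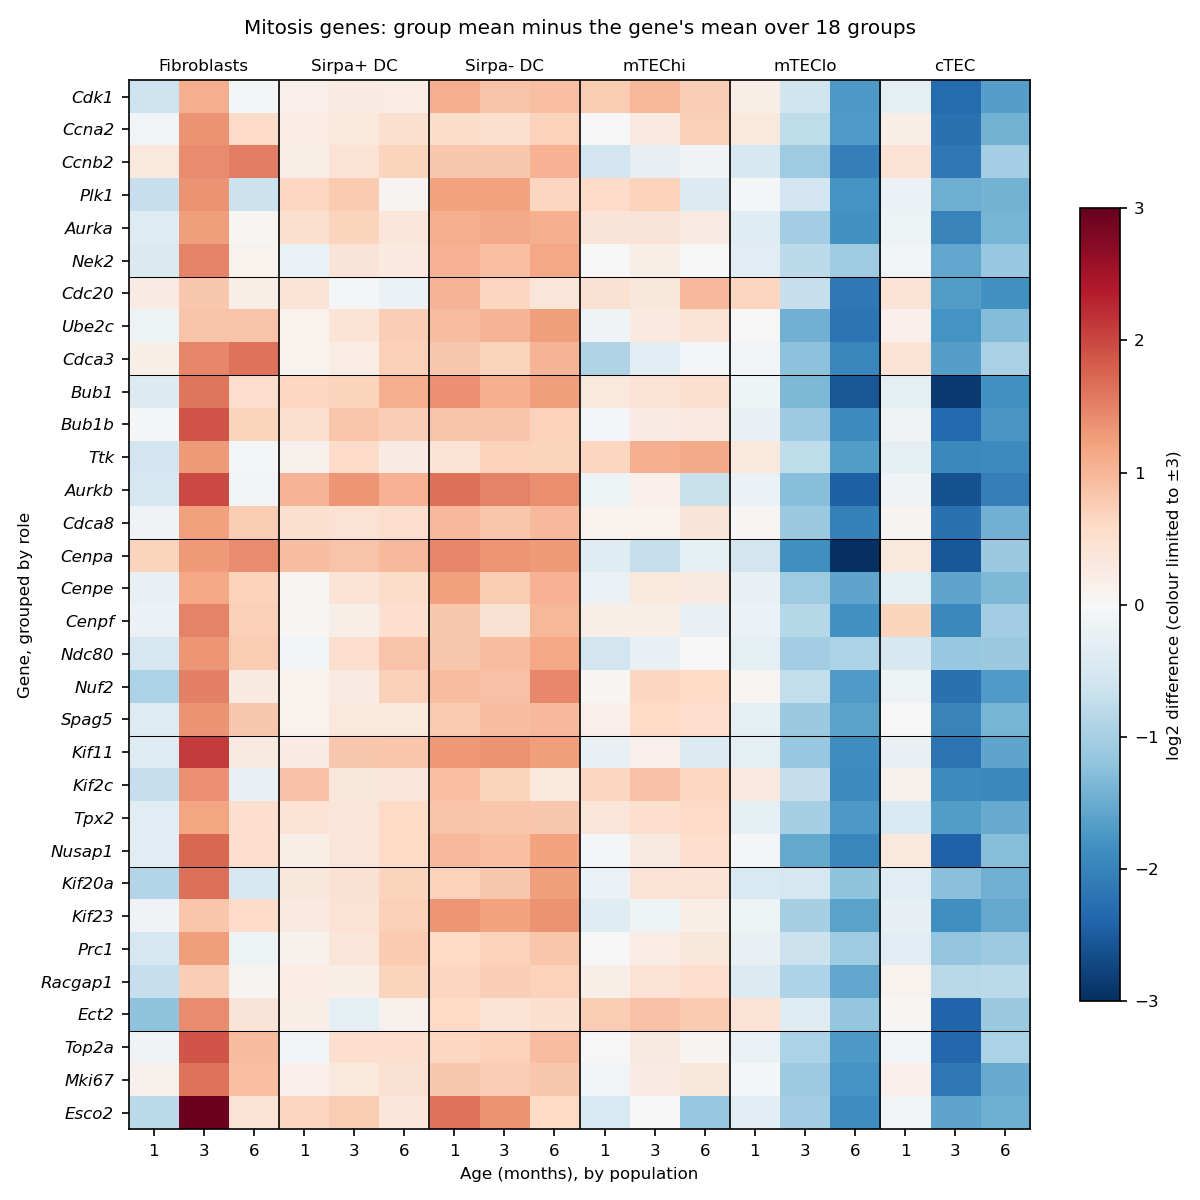
Group means of 32 mitosis genes (rows, grouped by role) in 6 populations at 1, 3 and 6 months (columns), each minus the gene's own mean over the 18 groups, in log2 units; n = 2 arrays per group. Nearly every gene is lowest in cTEC at 3 months (22 genes) or mTEClo at 6 months (8 genes), and 24 are highest in fibroblasts at 3 months.

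In mTEChi, the medullary population that includes the Aire-expressing cells, 23 of the 32 genes were higher than in mTEClo (limma, adjusted p under 0.05 and at least 2-fold, ages averaged), with a median difference of 1.17 and a range from 0.50 to 1.76. Of all genes tested, 11.8% were called higher in this comparison, and their median difference was -0.04. Against cTEC, 24 of 32 were higher in mTEChi, with a median of 1.32 (0.31 to 2.33) and a background of 13.8% called higher. No member was lower in mTEChi in either comparison. Of the 13 thymocyte markers, 1 was higher in mTEChi than in mTEClo, and 10 were lower in mTEChi than in cTEC; with their mean as a covariate, 23 and 30 members were called. B cell markers moved with the first comparison: 2 of 4 were called higher in mTEChi (median 1.10), Ms4a1 averaging 6.91 in mTEChi and 4.75 in mTEClo, while Pax5 averaged 5.24 and 5.14. The erythroid gene Alas2 averaged 7.55 in mTEChi and 5.40 in mTEClo and was called higher, 1 of 2 in its list. Of 7 DC markers, 1 was called higher in mTEChi than in mTEClo and 3 than in cTEC. Among 6 fibroblast markers, 2 were called higher and 1 lower against mTEClo, and 1 higher and 1 lower against cTEC. Pdgfrb had a mean of 9.95 for mTEChi, beside 5.50 for mTEClo and 5.51 for cTEC. Dcn went the other way, with 9.46 beside 10.38 and 11.76. What part these markers had in the result was not tested. With each gene's probe sets averaged in place of the brightest one, 9 members were called against mTEClo and 15 against cTEC.

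The spindle checkpoint kinase Bub1, which flags unattached kinetochores, differed most between mTEChi and mTEClo. It had a lowest, median and highest value of 7.56, 7.86 and 8.46 in mTEChi and of 4.89, 6.19 and 7.58 in mTEClo, a difference of 1.76 ± 0.19 (SE; adjusted p = 1.678e-08). The ranges overlapped only at the highest mTEClo array and the lowest mTEChi array. Ttk (Mps1), the kinase that starts checkpoint signalling, ran from 7.37 over 7.64 to 8.21 in mTEChi, from 5.06 over 6.05 to 7.30 in mTEClo and from 4.60 over 5.11 to 6.67 in cTEC. Every mTEChi array was above every mTEClo and cTEC array, and the difference was 1.66 ± 0.16 from mTEClo (adjusted p = 4.05e-09) and 2.33 ± 0.16 from cTEC (adjusted p = 5.177e-12). Cdk1, the master kinase of mitotic entry, ran from 9.13 over 9.55 to 10.10 in mTEChi, from 6.94 over 8.17 to 9.13 in mTEClo and from 6.31 over 7.12 to 8.71 in cTEC. Its difference was 1.54 ± 0.16 from mTEClo (adjusted p = 8.568e-09) and 2.25 ± 0.16 from cTEC (adjusted p = 5.872e-12).

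By role, all 5 checkpoint and chromosomal passenger genes, 5 of 6 kinetochore genes, 4 of 6 entry kinases and cyclins, 3 of 4 spindle motors and assembly factors, 2 of 3 partners of the anaphase-promoting complex, 2 of 3 genes of chromosome structure and 2 of 5 cytokinesis genes were higher in mTEChi than in mTEClo. The smallest differences were those of Ndc80, a microtubule-binding kinetochore subunit (0.50 ± 0.17, adjusted p = 0.01527, under 2-fold), and of Esco2, a cohesin acetyltransferase (0.54 ± 0.26, adjusted p = 0.08027). Ndc80 ran from 6.19 over 6.46 to 7.14 in mTEChi and from 5.33 over 5.99 to 6.54 in mTEClo, so its arrays overlapped. Esco2 ran from 3.55 over 4.29 to 5.56 in mTEChi and from 2.98 over 3.82 to 4.59 in mTEClo, and exceeded the pooled median on only 10 of 36 arrays. Against cTEC, the smallest difference was that of Cdca3, a trigger of Wee1 degradation at mitotic entry (0.31 ± 0.21, adjusted p = 0.2119). Every mTEChi array was above every mTEClo array for 6 genes (Cdk1, Aurka, Ttk, Spag5, Tpx2 and Racgap1), and above every cTEC array for 7 (Cdk1, Aurka, Bub1, Ttk, Kif2c, Tpx2 and Ect2). The share of all genes with arrays so separated was not counted, so these counts describe the members only.

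These differences were not of 1 size at each age. The 32-gene mean of mTEChi was 7.98 at 1 month, 8.23 at 3 months and 8.18 at 6 months. That of mTEClo was 7.82, 6.95 and 6.14 at the same ages, and that of cTEC 7.91, 5.99 and 6.53. At 1 month the 3 epithelial populations thus lay close together, and the tests of the age changes are given further on.

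Between mTEClo and cTEC no member was called in either direction (8.01% of all genes were), and the median difference was 0.20. At an unadjusted p under 0.05, 6 members were higher and 2 lower, while 38% of all genes passed that threshold in either direction. The largest estimates were those of Ect2, the exchange factor that activates RhoA for the cleavage furrow (0.79 ± 0.19), and of the centromeric histone gene Cenpa in the other direction (-0.72 ± 0.20), with adjusted p of 0.001935 and 0.007096 but under 2-fold. Thymocyte markers moved with this comparison: 9 of 13 were lower in mTEClo. With the marker mean of each array as a covariate, 6 members were higher in mTEClo.

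The arrays of the 2 dendritic cell populations spread least. No member reached 2-fold between Sirpa+ and Sirpa- DC (5.37% of all genes were called), although all 32 estimates were below 0 (median -0.48, range -0.87 to -0.10). At an unadjusted p under 0.05, 25 members were lower, against 30.1% of all genes in either direction. An adjusted p under 0.05, with no fold limit, was reached by 14 members. The share of all genes at that threshold was not counted, so this count describes the members only. Nek2, a centrosome kinase, ran from 6.72 over 7.07 to 7.61 in Sirpa+ DC and from 7.62 over 8.02 to 8.18 in Sirpa- DC (difference -0.87 ± 0.16, adjusted p = 0.0001871). Kif23, a motor of the central spindle, ran from 9.00 over 9.43 to 9.63 in Sirpa+ DC and from 10.01 over 10.18 to 10.37 in Sirpa- DC (difference -0.80 ± 0.15, adjusted p = 0.0002709). For these and 7 other genes (Cdk1, Aurka, Cenpa, Spag5, Kif11, Nusap1 and Mki67) every Sirpa+ array was below every Sirpa- array. How many of all genes were separated in this way was not counted. The smallest differences were those of the microtubule-depolymerising motor Kif2c (-0.10 ± 0.16) and of the checkpoint kinase gene Bub1b (-0.12 ± 0.19).

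Sirpa- DC exceeded mTEChi, the highest epithelial population, in 8 of 32 genes (9.23% of all genes were called higher), with a median of 0.71 and a range from -0.36 to 1.80. The size of this set depended on scaling. Making the gene medians of the arrays equal moved the difference of all genes by 0.41 on the log2 scale and called 22 members higher. Cenpa, the histone variant that marks centromeres, had values from 9.83 over 9.98 to 10.14 in Sirpa- DC and from 7.61 over 8.28 to 8.42 in mTEChi, 1.80 ± 0.20 apart (adjusted p = 1.47e-08). Aurkb, the kinase of the chromosomal passenger complex, ran from 8.63 over 8.75 to 8.93 in Sirpa- DC and from 6.08 over 7.10 to 7.73 in mTEChi, 1.73 ± 0.22 apart (adjusted p = 1.126e-07). Esco2 was 1.73 ± 0.26 apart, with overlapping arrays (5.26 to 6.80 in Sirpa- DC, 3.55 to 5.56 in mTEChi). The other called genes were the spindle motor gene Kif11 (1.46), Kif23 (1.39), Cdca3 (1.25), Ndc80 (1.22) and the cyclin gene Ccnb2 (1.20). Ttk (-0.36 ± 0.16), Ect2 (-0.31 ± 0.19) and Kif2c (-0.08 ± 0.16) had estimates below 0 that did not pass, each smaller than that shift of 0.41, so their direction is not read. Every Sirpa- array was above every mTEChi array for 15 genes. The share of all genes separated in this way was not counted here either. Of the 13 thymocyte markers, 3 were called higher in Sirpa- DC and 12 had estimates above 0 (median 0.39). One of them, Cd8a, averaged 9.61 in Sirpa- DC, 6.02 in mTEChi and 8.43 in Sirpa+ DC. It was higher in Sirpa- than in Sirpa+ DC, whereas 12 of the markers had the opposite order. What part Cd8a had in the marker mean was not tested. With the mean of the 13 markers as a covariate 6 members were called.

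Fibroblasts exceeded cTEC in 31 of 32 genes (9.05% of all genes were called higher), with a median of 1.64. Bub1 had values from 6.85 over 8.07 to 9.39 in fibroblasts and from 4.53 over 5.72 to 7.43 in cTEC (2.24 ± 0.19, adjusted p = 1.961e-10). Bub1b, a subunit of the checkpoint effector, ran from 7.88 over 9.05 to 10.47 in fibroblasts and from 5.43 over 6.68 to 8.56 in cTEC (2.23 ± 0.19, adjusted p = 3.371e-10). For Cenpa the values were 8.93 over 9.81 to 10.21 in fibroblasts and 5.99 over 7.53 to 9.15 in cTEC (2.22 ± 0.20). In spite of these sizes, the fibroblast and cTEC arrays overlapped for every member. Racgap1, a component of the centralspindlin complex, did not reach 2-fold (0.56 ± 0.15, adjusted p = 0.00293). The thymocyte markers were higher in fibroblasts too, 13 of 13, and with the marker mean as a covariate 12 members were higher. Their part in the result was not tested further.

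The largest age difference of the module was in cTEC. Between 3 and 1 months, 29 of 32 genes fell, with a median difference of -2.05 and a range from -2.84 to -0.65, while 3.88% of all genes tested were called lower and the median over all genes was -0.08. Cenpa measured 9.15 and 8.73 at 1 month, 5.99 and 6.21 at 3 months and 7.16 and 7.90 at 6 months. Both 3-month arrays were the lowest and both 1-month arrays the highest, and the difference between 3 and 1 months was -2.84 ± 0.34 (adjusted p = 1.601e-05). Nusap1, a microtubule-bundling protein of the spindle, measured 9.55 and 9.18 at 1 month, 6.52 and 6.70 at 3 months and 7.47 and 8.06 at 6 months, with -2.75 ± 0.31 between 3 and 1 months (adjusted p = 5.926e-06). Cenpf, a large protein of the outer kinetochore, measured 8.98 and 8.37, then 5.65 and 6.49, then 7.14 and 6.80, with -2.60 ± 0.44 (adjusted p = 0.0007246). For these genes no 3-month array overlapped a 1-month array.

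The entry kinases and cyclins fell in 6 of 6 genes, from -2.58 for Ccnb2, a cyclin partner of Cdk1, to -1.30 for Plk1. Ccna2 (cyclin A2) had -2.45 ± 0.24, Cdk1 -2.04 ± 0.28, Aurka (the spindle-pole Aurora kinase) -1.84 ± 0.22 and Nek2 -1.46 ± 0.28. The partners of the anaphase-promoting complex fell in 3 of 3 genes within a narrow range, with Cdc20 at -2.09, Cdca3 at -2.07 and Ube2c, the ubiquitin-conjugating enzyme of the complex, at -1.95. All 5 checkpoint and passenger genes fell, Bub1 by 2.58, Aurkb by 2.49, Cdca8 (Borealin) by 2.33, Bub1b by 2.24 and Ttk by 1.66 on the log2 scale. Of the 4 spindle motors and assembly factors all fell, Nusap1 most and the Aurora A activator Tpx2 least (-1.22 ± 0.22), with Kif2c at -2.05 and Kif11 at -1.98. Among kinetochore genes, 5 of 6 fell, with Nuf2 at -2.08, Spag5 at -1.99 and the motor gene Cenpe at -1.33. The genes of chromosome structure, Mki67 (the Ki-67 proliferation marker, -2.30), Top2a (topoisomerase II alpha, -2.26) and Esco2 (-1.50), all passed, Esco2 just so (adjusted p = 0.04984).

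Of the cytokinesis genes, 3 of 5 fell, with a median of -0.93; no test compared the roles. Ect2 (-2.44 ± 0.32) and Kif23 (-1.60 ± 0.26) were among the called ones. Racgap1, the partner of Kif23, measured 7.83 and 7.08 at 1 month, 6.49 and 6.55 at 3 months and 6.60 and 6.54 at 6 months, with -0.93 ± 0.26 between 3 and 1 months (adjusted p = 0.03866). Prc1, which bundles the central spindle, measured 8.43 and 8.01, then 7.15 and 7.58, then 7.44 and 7.50, with -0.85 ± 0.27 (adjusted p = 0.06564). Kif20a, a cytokinesis motor, had -0.91 ± 0.31 (adjusted p = 0.08443) and Ndc80 -0.65 ± 0.30 (adjusted p = 0.2254). In all 4 of these the 3-month arrays lay below both 1-month arrays. Their differences were measured close to the dim end of the array in part: Kif20a exceeded the pooled median on 19 of 36 arrays and its cTEC values lay between 4.29 and 5.56, whereas Prc1 exceeded it on all 36.

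Thymocyte markers moved in the same direction in cTEC. Their mean per array was 8.77 and 8.27 at 1 month, 6.54 and 7.56 at 3 months and 7.68 and 8.36 at 6 months, and 5 of 13 were called lower at 3 than at 1 month (median -1.78). With the marker mean as a covariate, 17 of 32 members were still lower at 3 months. Leaving out 1 array at a time gave 22 to 29 members, with the lowest count without the first 1-month array. Of 6 cTEC markers, 4 were also lower at 3 months. The gap between 3' and 5' control probe sets was 2.04 and 1.94 at 3 months, against 2.63 and 2.43 at 1 month, and with it as a covariate 27 members were called. The part of these markers in the result was not tested.

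At 6 months, 28 of 32 genes in cTEC were below their 1-month level (3.74% of all genes were called lower), with a median of -1.39. The calls at both later ages share the 1-month arrays and are not independent; 27 genes were called in both. The 4 genes not called at 6 months were Esco2, Top2a, Prc1 and Ndc80. The largest differences were those of Cdc20 (10.46 and 10.42 at 1 month, 8.58 and 8.12 at 3 months, 8.05 and 8.37 at 6 months; -2.24 ± 0.43 between 6 and 1 months, adjusted p = 0.001918), Kif2c (-2.08 ± 0.27) and Aurkb (-1.94 ± 0.37). Without the first 1-month array, 12 members passed.

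The 6-month arrays lay above the 3-month arrays for some genes. In all, 5 genes were called higher at 6 months, Cenpa (1.42 ± 0.34, adjusted p = 0.02171), Top2a (1.39 ± 0.34, adjusted p = 0.02264), Ect2 (1.27 ± 0.32, adjusted p = 0.02756), Nusap1 (1.16 ± 0.31, adjusted p = 0.03403) and Ccnb2 (1.13 ± 0.31, adjusted p = 0.04096), with 2.74% of all genes called higher and a median of 0.57 over members. Top2a measured 6.93 and 7.47 at 3 months and 8.40 and 8.79 at 6 months, and the arrays of the 2 ages did not overlap. Cdc20 (-0.14 ± 0.43), Kif2c (-0.03 ± 0.27), Ttk (0.02 ± 0.28) and Plk1 (0.05 ± 0.25) had estimates near 0. The thymocyte markers were higher at 6 than at 3 months in 2 of 13, and with their mean as a covariate no member was called. The count was also 0 without the first 3-month array or the second 6-month array.

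In mTEClo the fall was called for few genes at 3 months and for most at 6 months. At 3 months 6 were below 1 month (Nusap1, Ube2c, Cdca8, Ttk, Ccna2 and Mki67; 1.15% of all genes were called lower; median -0.83). The 2 arrays at 3 months differed, with 32-gene means of 7.30 and 6.60, the first being the array with the wide gap between 3' and 5' control probe sets, and the count was 0 without the second 3-month or the second 1-month array, 10 without the first 1-month fibroblast array and 0 with the thymocyte covariate. At 6 months 28 of 32 were below 1 month (3.87% of all genes), with a median of -1.65 and a range from -2.79 to -0.66.

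Cdc20, the activator of the anaphase-promoting complex, measured 10.56 and 10.79 at 1 month, 9.99 and 8.65 at 3 months and 7.86 and 7.91 at 6 months in mTEClo, with -2.79 ± 0.43 between 6 and 1 months (adjusted p = 0.0001596). Cenpa measured 7.73 and 8.44, then 7.45 and 6.14, then 5.29 and 5.77, with -2.56 ± 0.34 (adjusted p = 3.999e-05). Bub1 measured 7.24 and 7.58, then 6.85 and 5.53, then 5.03 and 4.89, with -2.45 ± 0.33 (adjusted p = 3.403e-05). In each, the 6-month arrays were the lowest and the 1-month arrays the highest, with no overlap. The 4 genes that did not pass were Prc1 (-0.82), Kif20a (-0.75), Nek2 (-0.73) and Ndc80 (-0.66). Ndc80 measured 6.43 and 6.54 at 1 month, 6.15 and 5.33 at 3 months and 5.83 and 5.80 at 6 months. Thymocyte markers moved in the same direction: 1 of 13 was called lower at 6 months, 12 of 13 estimates were below 0 (median -0.84), and their mean was 6.02 and 5.95 on the 6-month arrays, against 6.08 and 7.21 on the 1-month arrays. With that mean as a covariate 26 members were called, and without the second 1-month array, the one at 7.21, 21 were. The gap between 3' and 5' control probe sets was 1.84 and 1.98 at 6 months, against 2.73 and 2.62 at 1 month, and with it as a covariate 24 were called. Aire, a marker of mTEChi, measured 8.64 and 9.08 at 1 month, 7.57 and 6.71 at 3 months and 6.48 and 7.08 at 6 months in mTEClo (-2.08 ± 0.27 between 6 and 1 months, adjusted p = 2.226e-05). Of 6 mTEC markers, 2 were called lower at 3 months and 1 at 6 months. The part of these markers in the result was not tested.

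Among the 32 members, few differences with age were called in mTEChi. At 3 months no member was called different from 1 month (limma, 0% of all genes were called). Without adjustment 1 member was higher at p under 0.05, against 2.66% of all genes in either direction. At 6 months 895 of the 14495 genes tested were called higher, and no member was. Called lower were 3.34% of all genes and 1 of the 32 members, a share near that of all genes. At an unadjusted p under 0.05, 4 members were higher and 1 lower, against 25.3% of all genes in either direction. The called member was Plk1, the Polo kinase. It measured 8.60 and 8.31 at 1 month, 8.73 and 8.42 at 3 months and 7.74 and 7.21 at 6 months. The difference between 6 and 1 months was -0.98 ± 0.25 (limma, adjusted p = 0.01472). Both 6-month arrays lay below the other 4. Leaving out single arrays gave 0 to 3 calls, 0 without the first 1-month mTEChi array, and the thymocyte covariate gave 3 higher and 1 lower. Cdc20 measured 10.19 and 11.80 on the 6-month mTEChi arrays, against 10.56 and 10.42 at 1 month, and its estimate was 0.50 ± 0.43.

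In the dendritic cells no age difference passed the test (limma). In Sirpa- DC no member was called at 3 months (0.0345% of all genes; none at an unadjusted p under 0.05) or at 6 months (0.904%; 3 lower unadjusted). In Sirpa+ DC none was called at 3 months (0.331%, 2 higher unadjusted) or at 6 months (2.06%, 4 higher and 1 lower unadjusted). Over all genes, an unadjusted p under 0.05 was reached by 2.88% and 11.8% in Sirpa- DC at 3 and 6 months. The shares in Sirpa+ DC were 7.53% and 16.3%. The 32-gene mean of every Sirpa- array lay between 8.78 and 8.92, and of every Sirpa+ array between 8.12 and 8.57. Plk1 had its lowest values at 6 months in both. In Sirpa- DC it measured 8.44 and 8.61 at 6 months, against 9.12 and 9.06 at 1 month, a difference of -0.57 ± 0.25 that did not pass. In Sirpa+ DC it measured 7.98 and 7.96 at 6 months, against 8.53 and 8.49 at 1 month, a difference of -0.54 ± 0.25 that did not pass.

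**Figure D2:**
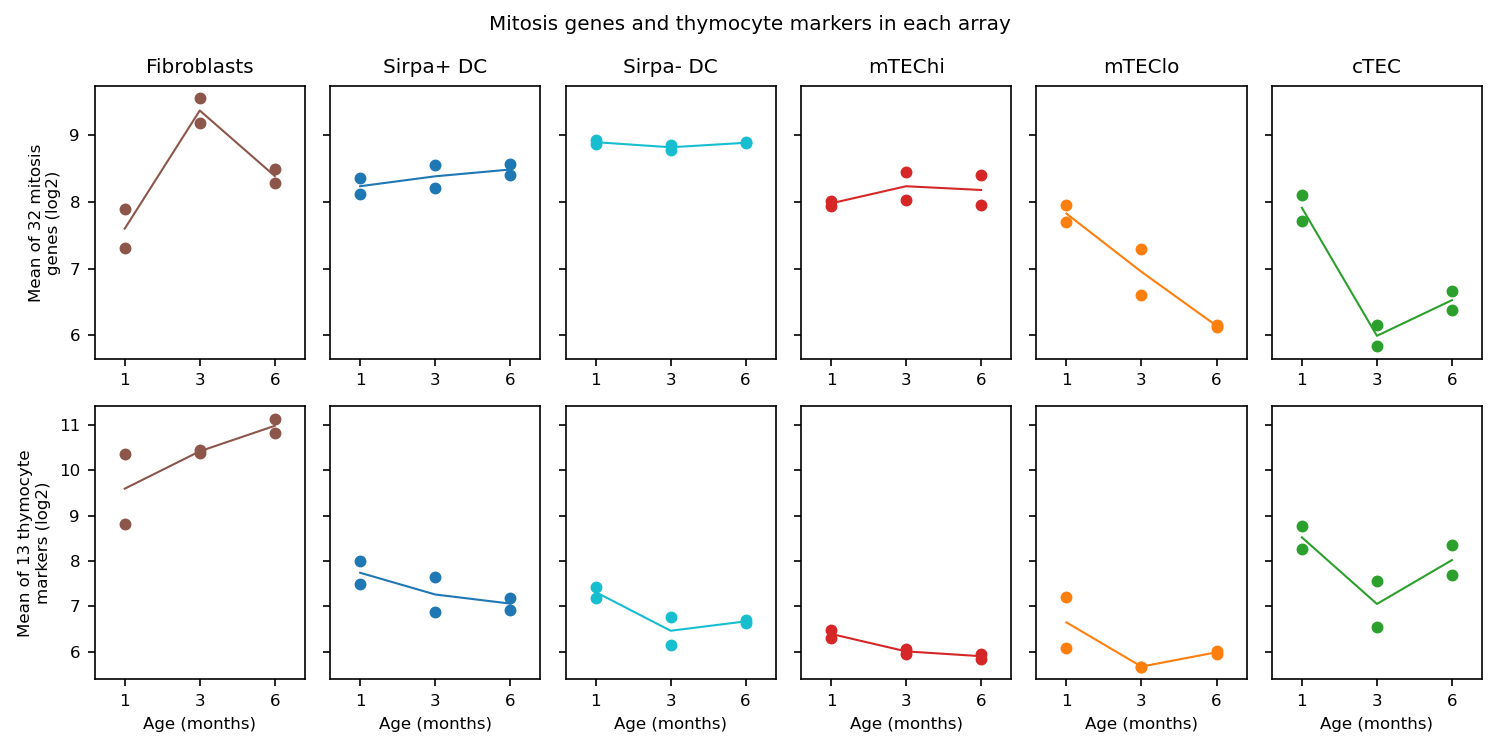
Mean log2 signal of the 32 mitosis genes (upper row) and of 13 thymocyte markers (lower row) on each array (points), by population and age in months; lines join the means of the 2 arrays of an age. The mitosis mean of cTEC arrays is 8.11 and 7.72 at 1 month and 5.83 and 6.15 at 3 months, and that of mTEClo arrays is 6.13 and 6.16 at 6 months, while dendritic cell arrays stay within 8.12 to 8.92.

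In fibroblasts the change ran the other way. At 3 months 30 of 32 genes were above 1 month (10.1% of all genes were called higher), with a median of 1.75, and at 6 months 18 were (15.8% of all genes), with a median of 0.78. Esco2 measured 3.55 and 4.64 at 1 month, 8.01 and 7.63 at 3 months and 4.91 and 5.69 at 6 months, with 3.72 ± 0.45 between 3 and 1 months (adjusted p = 4.169e-06). Ect2 measured 6.74 and 8.03, then 9.97 and 10.08, then 8.89 and 9.07 (2.64 ± 0.32, adjusted p = 4.905e-06), and Kif20a measured 4.48 and 5.47, then 7.15 and 7.84, then 5.55 and 5.13 (2.52 ± 0.31). The 3-month arrays were above all others for each. Cdc20 (0.58 ± 0.43) and Cenpa (0.61 ± 0.34) did not pass at 3 months. The fibroblast markers moved the opposite way: 2 of 6 were called lower at 3 months (median -0.97) and 6 of 6 at 6 months (median -2.22). The second 6-month array stood apart, with Col1a1 at 5.84, Pdgfra at 8.10 and Lum at 8.42, against 8.54, 10.99 and 11.85 on the first, and without it 7 members passed at 6 months. On the first 1-month array the erythroid gene Klf1 measured 9.62, and it was at most 5.38 on the other fibroblast arrays. Fibroblasts exceeded cTEC in 31 genes without that array and in 29 without the second 6-month one, and at 3 months 30 genes were called without the second 6-month one. Thymocyte markers were higher with age in the same population, 4 of 13 at 3 months and 8 of 13 at 6 months, and with their mean as a covariate 26 members were called at 3 months and 1 at 6 months. Without the first 1-month array, which had the widest gap between 3' and 5' control probe sets and the lowest thymocyte mean of the 6, 24 passed at 3 months and 4 at 6 months.

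The age changes differed between populations for every member. A test over all 10 age contrasts called 32 of 32 genes, against 15.7% of all genes tested. Between 3 and 1 months, the cTEC change was below the mean change of the other 5 populations for 31 genes (2.64% of all genes called lower; median -2.22), with Nusap1 at -2.95 ± 0.33, Aurkb at -2.86 ± 0.41 and Ccnb2 at -2.79 ± 0.34. That mean includes the fibroblasts, which rose.

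Between 6 and 1 months, 3 contrasts were added after the data had been seen. The mTEClo change was below that of mTEChi for 25 genes (4.97% of all genes called lower; median -1.85), most for Cdc20 (-3.29 ± 0.61, adjusted p = 0.002299), Ube2c (-2.74 ± 0.48) and Ccna2 (-2.70 ± 0.33), and for 16 genes without the second 1-month mTEClo array. Of 6 mTEC markers, 3 were lower in the same contrast. The cTEC change was below that of mTEChi for 17 genes (1.48%; median -1.62), among them Cdc20 (-2.74 ± 0.61), Ccna2 (-2.32 ± 0.33) and Cdca3 (-2.23 ± 0.52), and for 6 genes without the first 1-month or first 6-month cTEC array. No member was called different between the mTEClo and cTEC changes (0.497% of all genes called, median -0.27). Without adjustment 1 member was lower at p under 0.05, against 7.37% of all genes in either direction.

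**Figure D3:**
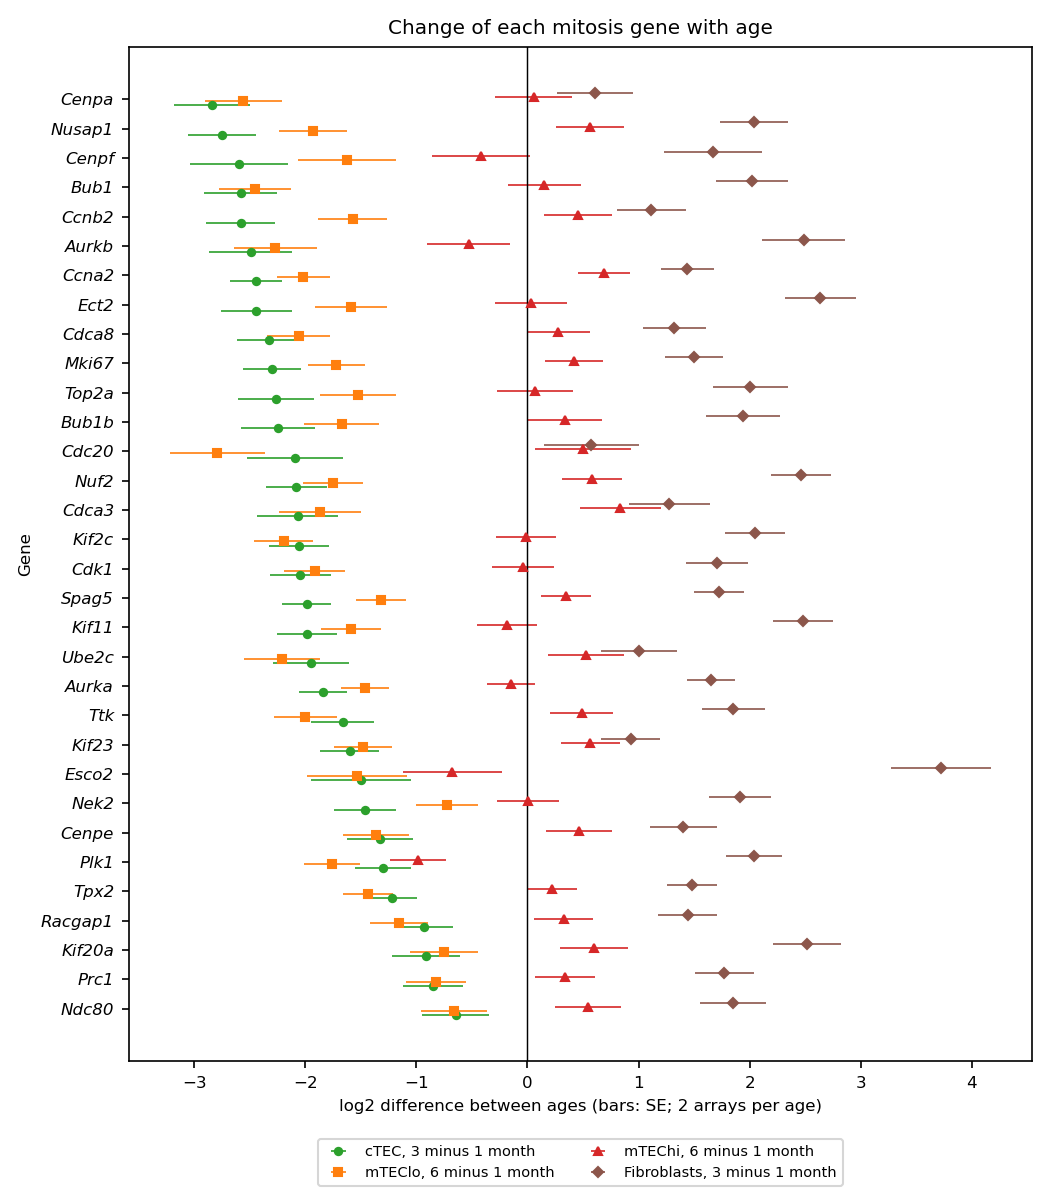
Difference between ages in log2 units for each of 32 mitosis genes (rows, ordered by the cTEC difference), with its SE, in 4 comparisons of 2 arrays with 2 arrays. Differences in cTEC (3 minus 1 month) and mTEClo (6 minus 1 month) lie left of 0, from -2.84 and -2.79 up to -0.65 and -0.66, those in fibroblasts lie right of 0, and those in mTEChi lie on both sides of 0, with Plk1 lowest at -0.98.

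The same genes tended to fall most in cTEC and mTEClo, which share no arrays. Of the 29 genes called in cTEC at 3 months and the 28 called in mTEClo at 6 months, 28 were called in both (96.6% of the first list and all of the second). Since each list held most of the 32 genes, a large overlap was fixed in advance and does not show which genes fell most. Across the 32 genes, the differences had a Pearson correlation of 0.71 and a Spearman correlation of 0.67, a description only, since genes share arrays and are not independent. The rise in fibroblasts had no such order, with correlations of 0.14 with the cTEC and 0.29 with the mTEClo differences. The correlation between a gene's mean level and its difference was -0.47 in cTEC and -0.43 in mTEClo, so brighter genes had the larger falls. In fibroblasts at 3 months it was -0.55, and there dimmer genes had the larger rises.

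The likeness of each gene to the rest was judged by the correlation of a gene's 18 group means with the median of the other members, which ranged from 0.85 to 0.99 and was highest for Bub1. Ect2 (0.85) was lowest, followed by Esco2, Cdc20 and Plk1 (0.87 each). Cdc20 had no clear peak in 3-month fibroblasts, where it measured 10.92 and 10.76, against 9.81 and 10.71 at 1 month. Ect2 was high in all mTEChi arrays (9.13 to 9.64), above its values in Sirpa+ DC (8.23 to 8.84). The span of group means was widest for Esco2 (4.80), Aurkb (4.58), Cenpa (4.57) and Bub1 (4.49) and narrowest for Racgap1 (2.31), Prc1 (2.43) and Ndc80 (2.47).

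**Figure D4:**
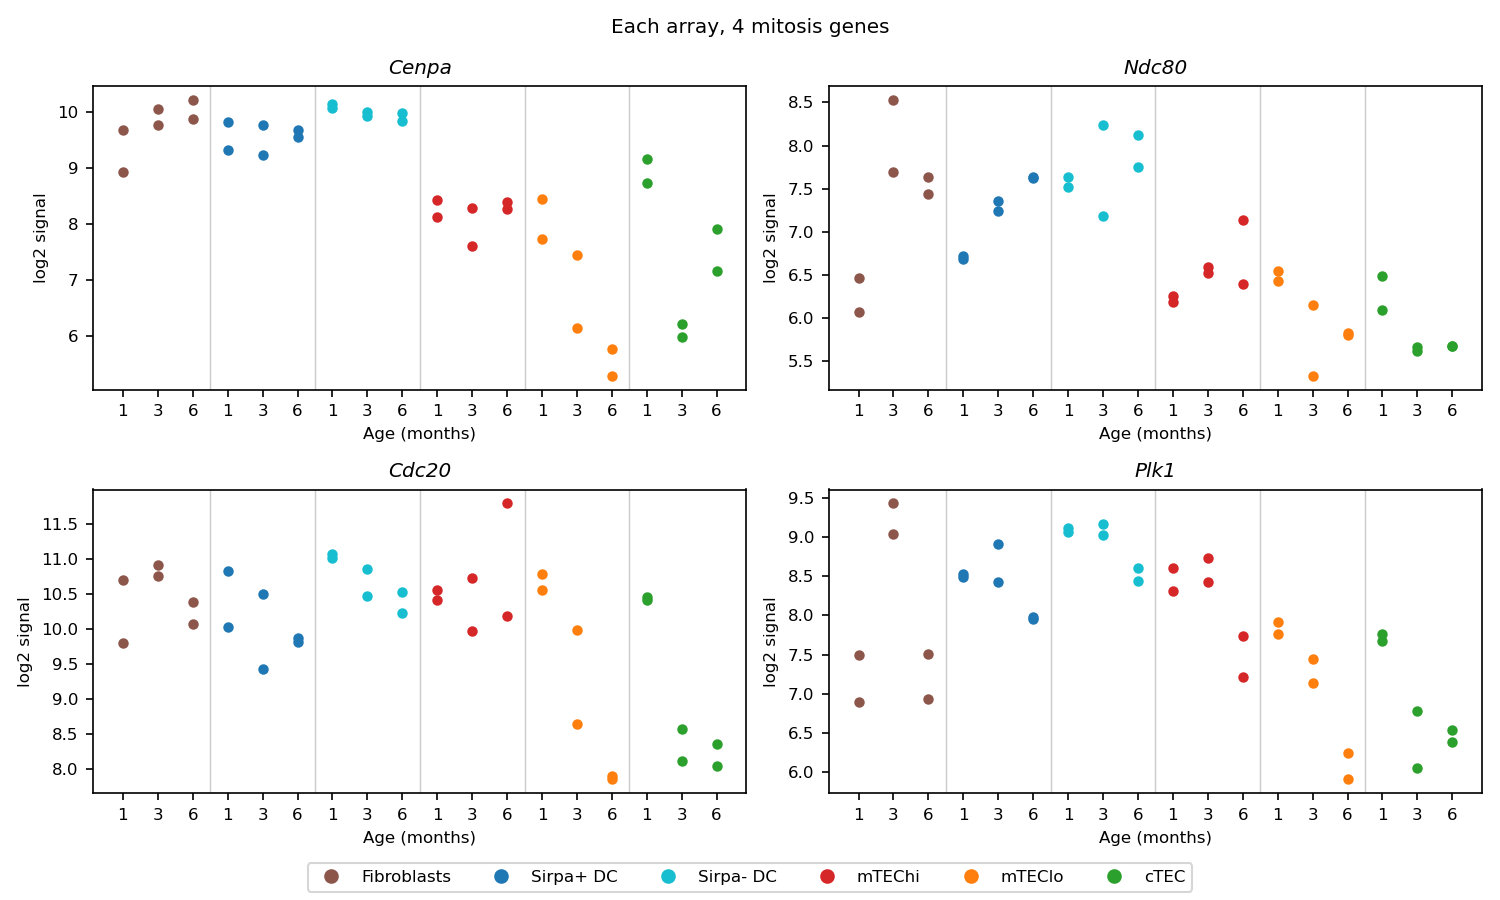
Log2 signal of Cenpa, Ndc80, Cdc20 and Plk1 on each of 36 arrays (points), by population (colour) and age in months. Cenpa falls to 5.99 and 6.21 in cTEC at 3 months, Ndc80 spans a narrower range, Cdc20 stays low in cTEC at 6 months (8.05 and 8.37), and Plk1 is lowest at 6 months within mTEChi (7.74 and 7.21).

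The 32 probe sets were compared with the other probe sets of the same genes. There were 40 other probe sets for 23 members, of which 21 had a mean below the pooled median and 19 above it. All 19 brighter ones had a difference below 0 in cTEC between 3 and 1 months (median -1.24) and in mTEClo between 6 and 1 months (median -1.18). The 21 dimmer ones had medians of -0.17 and -0.12.

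Other genes of the cycle were measured on the same arrays, from lists chosen by function. Of 52 further mitosis genes tested, 15 were higher in mTEChi than in mTEClo and none lower (median 0.72), among them Cdc25c, the phosphatase that activates Cdk1 (2.90 ± 0.21), the condensin subunit gene Ncapg (1.83), the kinase gene Melk (1.77) and the spindle-pole gene Aspm (1.74). In cTEC at 3 months 32 of 52 were lower than at 1 month (median -1.22), with Ncaph at -2.85 ± 0.36, Cdca5 (sororin, a cohesin guard) at -2.81, Depdc1a at -2.46 and the kinetochore gene Spc25 at -2.18. In mTEClo at 6 months 32 of 52 were lower (median -0.95), led by Cdca5 (-2.33), Cdc25c (-2.19), the centriole gene Stil (-2.05) and Spc25 (-2.03). In fibroblasts at 3 months 46 of 52 were higher, Cep55 most (2.76 ± 0.43).

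A list of 12 replication genes holds the origin licensing genes Mcm2 to Mcm7, Cdc6 and Cdt1 and the S phase genes Cdc45, Gins1, Gins2 and Pcna. Of these, none was called between mTEChi and mTEClo (limma; median -0.05, range -0.31 to 0.23), while 10 were higher in Sirpa- DC than in mTEChi (median 1.35), with the licensing factor gene Cdc6 at 2.50 ± 0.16, Mcm3 at 1.68, Mcm2 at 1.56 and Gins2 at 1.54. With age they fell where the mitosis genes fell, 9 of 12 in cTEC at 3 months (Cdc6 -2.16 ± 0.28) and 8 of 12 in mTEClo at 6 months (Cdc6 -1.88 ± 0.28), and all 12 rose in fibroblasts at 3 months.

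Of the 15 core subunits and coactivators listed for the anaphase-promoting complex, which act through Cdc20 and Ube2c, few were called in any 1 comparison. In fibroblasts 3 were higher at 3 months, and 3 were higher and 1 lower at 6 months. Called higher there were 10.1% and 15.8% of all genes. At 6 months 1 was lower in each of cTEC, mTEChi and Sirpa+ DC. The mTEClo change minus the mTEChi change gave 1 higher and 1 lower. None was called between mTEChi and mTEClo (median -0.18) or in mTEClo at 6 months (median -0.14), and 1 was lower in cTEC at 3 months (Anapc5, -0.67 ± 0.19, adjusted p = 0.04158). Fzr1 (Cdh1), the coactivator that follows Cdc20 at mitotic exit, was 0.51 ± 0.11 higher in estimate in mTEChi than in mTEClo (adjusted p = 0.0003792, under 2-fold). Of 8 inhibitors of the cycle, 3 were higher in mTEChi than in mTEClo, the stress gene Gadd45a (1.42 ± 0.23), Cdkn1c (p57, 1.39 ± 0.19) and Cdkn1a (p21, 1.33 ± 0.18), and 1 was lower, Btg2 (-1.04 ± 0.20). None of the 8 was called in cTEC at 3 months, and Wee1, the kinase that restrains Cdk1, was lower in mTEClo at 6 months (-0.83 ± 0.20).

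**Figure D5:**
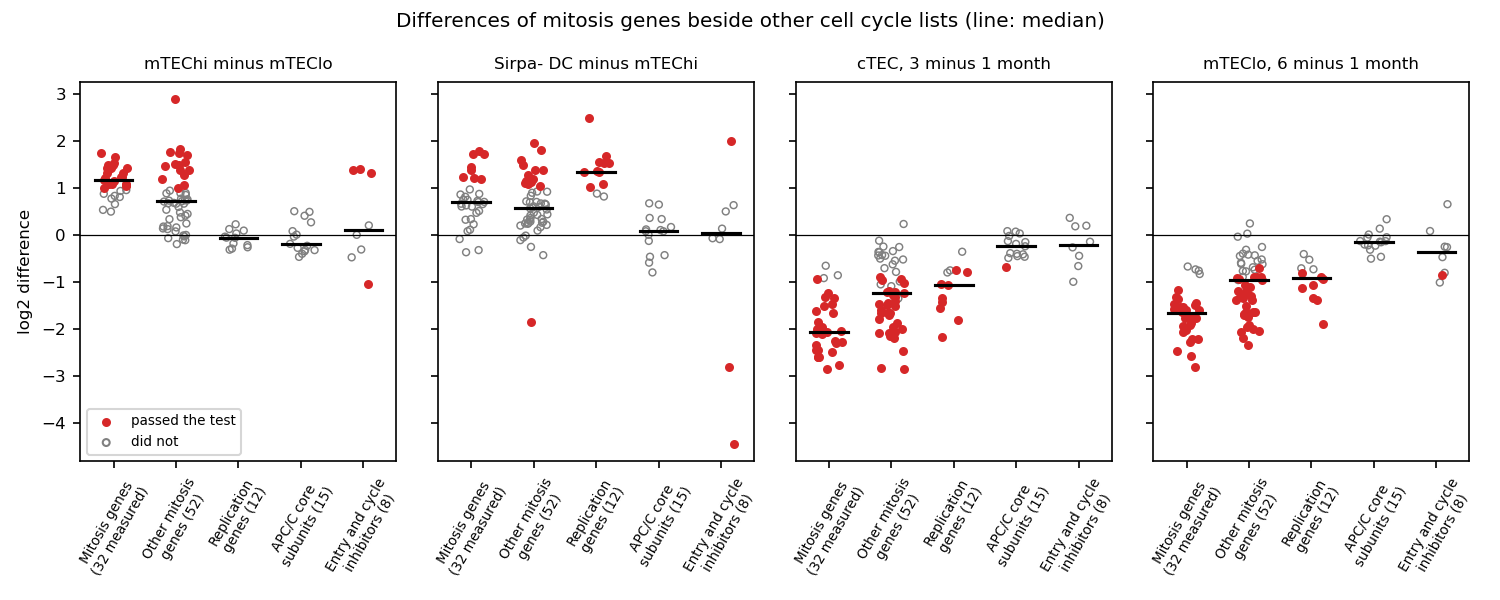
Log2 difference of each gene (points) in the mitosis module and 4 other lists, in 4 comparisons; filled points passed the test and black lines are list medians. The 32 mitosis genes all lie above 0 for mTEChi minus mTEClo (median 1.17), as do 46 of 52 further mitosis genes (median 0.72), while the replication genes lie near 0 (median -0.05). Every list shown has a median below 0 in both age comparisons. Nearest to 0 are the anaphase-promoting complex list (-0.23 in cTEC and -0.14 in mTEClo) and the inhibitors (-0.20 and -0.36).

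Outside the module, the genes whose 18 group means were most like the module's mean were Shcbp1 (Pearson 0.98), Depdc1a, Incenp, Cdca5, Stil, Sgo1, Pclaf, Kntc1, Ncapg and Spc24 (0.96). Of these 10, 8 belong to the list of further mitosis genes, and so do 23 of the first 50. By Spearman correlation 5 of the 10 were again among the first 10. The median Pearson correlation with the module was 0.89 for the further mitosis genes, 0.83 for the replication genes, 0.31 for the inhibitors, 0.22 for the thymocyte markers and -0.004 for the anaphase-promoting complex list, against 0.076 over all genes tested.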

How the data were processed

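Thymic stromal cells of male C57BL/6J mice were profiled on 36 arrays. The deposited table holds log2 values of 45101 probe sets. The authors normalised them in Gene Expression Commons, per the series' design text, and the submitters' processing notes name GCRMA; neither versions nor settings are given there, and the log base was read from the values. Control probe sets (64) were left out. Of the rest, 34945 carried 1 symbol in the platform annotation, 932 several and 9160 none. The brightest probe set represented each of 18193 genes. Genes above the pooled median on at least 2 arrays were tested (14495). limma 3.58.1 (R 4.3.3) fitted 18 group means with 18 residual degrees of freedom and moderated variances with a trend, and p-values were Benjamini-Hochberg adjusted over all genes tested. A call needed an adjusted p under 0.05 and, between populations, at least a 2-fold difference. The procedure was tested on simulated data with noise drawn independently for each gene and array. Shared animals, RNA quality and thymocyte transcripts were not part of that simulation. Precision is limited by array number. The members and lists, and the rule for named genes (members, up to 4 called genes of each other list, the 10 most alike, Cdkn1a and Fzr1), were chosen with earlier results of these data known. Alternatives covered scaling, filter, probe set, covariates, array weights, block, fold and single arrays.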

Additional observations from a re-analysis of the deposited data

Results flagged for a closer look

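The age changes of the mitosis genes differed between populations by tests of the difference itself, and these results are listed here for that reason. All 32 members passed the test over 10 age contrasts. The cTEC change between 1 and 3 months was below the mean change of the other 5 populations for 31 members, with Nusap1 at -2.95, Aurkb at -2.86 and Ccnb2 at -2.79 (log2). The mTEClo change between 1 and 6 months was below that of mTEChi for 25 members, with Cdc20 at -3.29, Ube2c at -2.74 and Ccna2 at -2.70. The cTEC change over the same ages was below that of mTEChi for 17 members, with Cdc20 at -2.74, Ccna2 at -2.32 and Cdca3 at -2.23. These contrasts between 1 and 6 months were added after the data had been seen. With 1 array left out, the count fell as low as 16 for mTEClo and 6 for cTEC. Array weights gave 9 for cTEC. Each group holds 2 arrays, too few to look for single arrays that stand apart from their group.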

How the results depend on the processing

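No called member difference reversed under any alternative in which it was tested. With all probe sets of a gene averaged, 245 of 304 differences kept their call and 49 did not pass. The rest were not tested there. Of 24 counts of called members, 11 stayed within 1.5 times under all alternatives other than single arrays left out. Quantile normalization, no filter and a filter at the 60th percentile moved none of them. Equal gene medians gave 22 for Sirpa- DC minus mTEChi. The mean of all probe sets gave 9 for mTEChi minus mTEClo, 15 for mTEChi minus cTEC, 2 for mTEChi and 1 for Sirpa+ DC at 6 months. With the thymocyte marker mean as covariate the counts were 6 for mTEClo minus cTEC, 12 for fibroblasts minus cTEC, 17 for cTEC and 0 for mTEClo at 3 months, 4 for mTEChi, 1 for Sirpa+ DC and 1 for fibroblasts at 6 months, and 0 for cTEC 6 minus 3 months. The 3' to 5' covariate gave 2 for mTEChi at 6 months. At 4-fold the counts were 0 for mTEChi minus mTEClo, 3 for mTEChi minus cTEC, 0 for Sirpa- DC minus mTEChi and 7 for fibroblasts minus cTEC. Array weights gave 0 for mTEChi, 3 for Sirpa- DC, 3 for Sirpa+ DC and 6 for fibroblasts at 6 months, and 9 for the cTEC change minus the mTEChi change. Without the 6 fibroblast arrays, an alternative chosen after seeing the data, mTEClo at 3 months had 10. Apart from construction (a higher fold), the cause was not tested.

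Leaving out 1 array at a time gave 18 to 26 for mTEChi minus mTEClo, 23 to 26 for mTEChi minus cTEC, 8 to 10 for Sirpa- DC minus mTEChi, 28 to 31 for fibroblasts minus cTEC, 22 to 29 and 12 to 29 for cTEC at 3 and 6 months, 0 to 7 for cTEC 6 minus 3 months, 0 to 15 and 21 to 29 for mTEClo at 3 and 6 months, 0 to 3 for mTEChi at 6 months, 24 to 30 and 4 to 22 for fibroblasts at 3 and 6 months, 24 to 32 for the cTEC change at 3 months against the other 5 populations, 16 to 27 (16 without the second 1-month mTEClo array) for the mTEClo and 6 to 19 for the cTEC change minus the mTEChi change, and 32 to 32 for the test over 10 contrasts.

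Groups share replicate numbers. Residuals of same-numbered arrays of an age correlated at a median of 0.086, 0.169 and 0.052 at 1, 3 and 6 months, with 4, 10 and 3 of 15 pairs above 0.1. The main fit did not pair the samples by number, a choice that these correlations do not settle. The labels do not tie a number to an animal, and whether same-numbered arrays share animals is not known; at 3 months all 15 such correlations were above 0. With the replicate block as a random effect, 29 members were called in cTEC and 5 in mTEClo at 3 months. With fixed effects, run for the population comparisons, 23 were called for mTEChi minus mTEClo.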
